A study of Caenorhabditis elegans with 2 samples.

Results

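The nuclear genes of Caenorhabditis elegans that encode proteins of the mitochondrial ribosome were examined in ChIP-seq of PHA-2, a homeobox transcription factor required for the isthmus of the pharynx. Genes were taken by name: nuclear protein-coding genes of the Ensembl WBcel235 annotation (release 115) called mrpl- or mrps- followed by a number, with an optional decimal or letter. The rule found 69 of 19973 nuclear protein-coding genes, 41 of them mrpl genes of the large ribosomal subunit and 28 mrps genes of the small subunit. It used no measured value. A further gene, mrps-18.C, has both a point and a letter after its number and was outside the rule, and it had no summit in any list. Mitoribosomal proteins with other names, such as dap-3, were not counted.

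Whole embryos of strain OP687 were used, in which an unc-119(tm4063) III mutant background carries the transgene wgIs687 and PHA-2 is fused at its C-terminus to GFP and FLAG. The embryos were at the late stage, 3 h after synchronisation by egg bleaching, with male and female animals pooled, and chromatin was sheared by sonication and immunoprecipitated with anti-GFP antibody. There was 1 group of 2 biological replicates and no second condition, and the peaks of the 2 replicates were called with a common control, which was not analysed here. The chromatin came from all cells of the embryo, so the cells that contributed a peak cannot be told apart. The labels do not name the promoter of the transgene, and peak lists hold no expression values with which the stage or tissue could be checked against markers.

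The measurements are the signal values of ChIP-seq peaks, as the authors' peak caller gave them, and the positions of the peak summits. The ce11 lists (the same assembly as WBcel235) held 30000 peaks for the pooled replicates, 23371 for replicate 1 and 24336 for replicate 2. These 3 lists are relaxed, and their deposited descriptions say that they contain background as well as peaks. A stricter list, called optimal by the authors, held 878 peaks, which were the 878 of highest signal in the pooled list, with a lowest signal of 120. Signals of the pooled list run higher than those of the replicate lists (medians over all peaks: 46.8 pooled, 29.1 for replicate 1, 29.0 for replicate 2), so values were compared within a list only. Each gene was given the summit of highest signal in a window that begins 1000 bp upstream of its 5′ end and extends 500 bp into the gene. No read counts were given, so the depth behind each value is unknown.

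Mitochondrial ribosomes translate the few proteins that the mitochondrial genome encodes, nearly all of them core subunits of the respiratory chain. The ribosomal RNAs are made in the organelle, whereas the ribosomal proteins are encoded in the nucleus, made in the cytosol and imported. Some are homologs of bacterial ribosomal proteins and carry the bacterial number, and others were added to mitoribosomes in the eukaryotic lineage. In C. elegans many genes lie in operons, in which a single promoter serves a row of closely spaced genes on the same strand and the transcripts are separated by trans-splicing, and lowering the expression of mrps-5 lengthens lifespan and induces the mitochondrial unfolded protein response.

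Of the 69 mitoribosomal genes, 4 (5.80%) had an optimal summit in their window: mrpl-23 and mrpl-39 of the large subunit and mrps-34 and mrps-35 of the small subunit. Over all nuclear protein-coding genes the share was 2.74%. At these genes, as at all coding genes, strong summits were rarer than weak ones. A relaxed pooled summit lay at 45 members (65.2%), against 39.6% of all coding genes. Many of these summits were weakly supported. The authors' −log10 q-value was 0.132 at mrpl-50, the member of median pooled signal, and 1.91 at mrps-34, the weakest of the 4 optimal members. Presence in a relaxed list is thus not a call of binding. A pooled summit of rank 5000 or stronger lay at 13 members (18.8%), against 11.2% of all coding genes. None of the members had a summit among the 100 strongest of the pooled list, where 0.22% of all coding genes had one, and 4 had one among the 1000 strongest (5.80%, against 2.98% of all coding genes). The optimal count rests on 4 genes, and it ran from 2 to 7 in other windows or with stricter lists.

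In the window of 1000 bp upstream to 500 bp downstream, the level of the summits that were found did not stand apart. The best pooled signal of the 45 members had a median of 54.0 with quartiles of 43.8 and 74.3, against 52.3 with quartiles of 41.7 and 71.2 over the 7910 coding genes with a pooled summit. The median in replicate 1 was 37.0 for members, against 32.0 for all coding genes. In replicate 2 it was 30.6 for members, against 31.5 for all coding genes. The members' summits were therefore more frequent than those of coding genes as a whole in all 3 relaxed lists, and of a similar level.

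**Figure D1:**
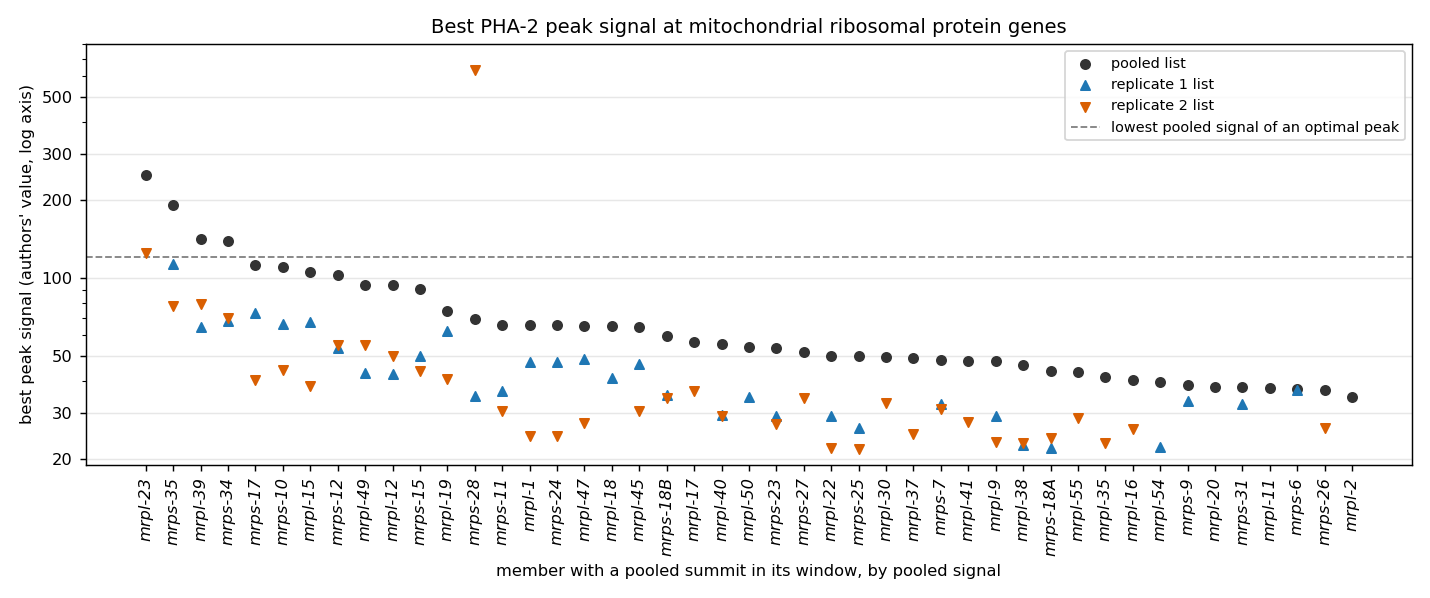
Best signal value of each of the 45 members with a pooled summit in its window (log axis, the authors' peak signal without unit), in the pooled list (circles), replicate 1 (upward triangles) and replicate 2 (downward triangles). The dashed line is the lowest pooled signal of an optimal peak (120), and 4 members lie above it; the single triangle at 633 is a replicate 2 peak at a snoRNA gene in the window of mrps-28.

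Stretches of 6 intergenic sites are shown because they carry strong member summits outside annotated exons, or the start shared by a pair of members. They are from the WBcel235 genome, on the member's strand, 5′ to 3′, and reach at most 75 bases to each side of the pooled summit, shortened where an annotated exon begins. Capitals mark every match to ATTAA or TAATTA on either strand, letters found in homeodomain binding sites. The mrpl-39 stretch lies at chrV:1821449-1821578 (plus strand), mrps-34 at chrIII:4542503-4542653 (minus strand), mrps-17 at chrIII:6431951-6432101 (minus strand), mrps-10 at chrIII:12926126-12926276 (plus strand), mrpl-49 at chrV:12728549-12728630 (plus strand) and mrps-24, shared with mrpl-1, at chrIV:7709947-7710044 (plus strand). The summit is base 76 of each.
mrpl-39: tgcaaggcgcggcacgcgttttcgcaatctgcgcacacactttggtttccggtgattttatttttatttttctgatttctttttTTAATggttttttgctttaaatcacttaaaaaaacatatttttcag
mrps-34: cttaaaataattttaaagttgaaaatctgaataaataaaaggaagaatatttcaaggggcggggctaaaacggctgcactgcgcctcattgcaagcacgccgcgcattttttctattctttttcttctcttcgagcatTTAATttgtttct
mrps-17: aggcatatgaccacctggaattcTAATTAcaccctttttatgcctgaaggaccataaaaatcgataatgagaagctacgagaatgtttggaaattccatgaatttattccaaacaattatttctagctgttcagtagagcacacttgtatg
mrps-10: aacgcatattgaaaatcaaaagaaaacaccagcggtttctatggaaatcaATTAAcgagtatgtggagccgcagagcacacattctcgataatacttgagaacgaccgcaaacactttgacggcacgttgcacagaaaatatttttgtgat
mrpl-49: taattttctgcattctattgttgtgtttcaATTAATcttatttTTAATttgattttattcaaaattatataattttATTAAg
mrps-24: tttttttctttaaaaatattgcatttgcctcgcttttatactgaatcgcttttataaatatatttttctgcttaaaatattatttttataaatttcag

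The letters ATTAA occurred 4 times in the mrpl-49 stretch, once in those of mrpl-39, mrps-34 and mrps-10, and not in those of mrps-17 and mrps-24; mrps-17 held TAATTA. The mrps-34 stretch also held CCGCCC on the other strand. GC content differed between the stretches, with 14.6% in mrpl-49, 19.4% in mrps-24 and 33.8% to 39.7% in the other 4. The mrpl-39 and mrps-24 stretches end in TTTCAG directly before the annotated 5′ end, letters of the C. elegans splice acceptor. TTTCAG stood there in 25 of the 69 members (36.2%), against 12.3% of all nuclear protein-coding genes, and whether the annotated 5′ end, from which distances are given, is a trans-splice site there was not tested.

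Over the 44 different best pooled summits of the members, ATTAA lay in 23 of the windows of 75 bases to each side of the summit (52.3%), against 39.1% of the 6788 best summits of all coding genes and 38.1% of the 29976 nuclear pooled summits. TAATTA lay in 5 of the 44 windows (11.4%), against 7.88% at the best summits of all coding genes. CCGCCC lay in 2 (4.55%, against 5.82%), and GTTCGANNC, the B box of tRNA genes, in none (against 1.93%). The members' DNA was richer in A and T. In the summit windows the median GC content was 35.4%, against 37.1% at the best summits of all coding genes and 36.4% at all nuclear pooled summits. Directly upstream of the members' annotated 5′ ends it was 27.8%, against 33.1% for all coding genes. ATTAA lay in 66.7% of the windows of the same length there, against 46.1%. TAATTA lay in 15.9% of them, against 9.38%, and CCGCCC in 4.35%, against 4.80%. GTTCGANNC, absent at the members' summits, lay in 3 of the 69 windows upstream of the 5′ ends (4.35%), against 0.616%. The part of base composition in these shares was not tested, and both strands and overlapping matches were counted.

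The strongest summit at a member was that of mrpl-23, which encodes the homolog of a bacterial protein at the exit of the ribosome's peptide tunnel. Its pooled signal was 249 (rank 173 of 30000; peak at chrI:6212645-6213100). The best summit in the window had 124 in replicate 2 (rank 165), whereas no replicate 1 summit lay in the window. The replicate 1 summit in the same peak had a signal of 130 (rank 187) and fell 1008 bp upstream, 8 bp outside the window. Both replicates therefore hold the peak. It lies at the far end of the window, 988 bp upstream of mrpl-23 and 49 bp from the snoRNA gene T08B2.13, inside a non-coding exon. It was the only best pooled summit of a member within 200 bp of a tRNA, snoRNA or snRNA gene, and mrpl-23 itself starts 96 bp behind the coding gene fars-1.

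The small-subunit gene mrps-35 had the strongest summit close to a member's start. It encodes a mitoribosomal protein without a bacterial counterpart. Its pooled signal was 190 (rank 301; peak at chrV:18980943-18981398), with 113 in replicate 1 (rank 248) and 78.1 in replicate 2 (rank 462). The summits lay 135 bp upstream in the pooled list, 125 bp in replicate 1 and 144 bp in replicate 2. The head-to-head neighbour sws-1 overlaps this start, so the summit is also in the 5′ UTR of sws-1.

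Shared starts also carried the other 2 optimal summits. At mrpl-39, a gene of the large subunit, the pooled signal was 142 (rank 584; peak at chrV:1821296-1821751, summit 55 bp upstream), with 64.5 in replicate 1 and 79.4 in replicate 2. The glycosyltransferase gene gly-7 starts 256 bp away on the other strand and takes the same summit. At mrps-34, a gene of the small subunit, the pooled signal was 139 (rank 615; peak at chrIII:4542350-4542805, summit 126 bp upstream), with 68.1 in replicate 1 and 70.1 in replicate 2. The replicate summits were 3 bp apart, and cisd-3.1, which encodes an iron-sulfur protein, starts 429 bp away on the other strand. In both cases the member's own 5′ end was the closest to the summit.

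Just below the optimal threshold of 120 were 5 members, at pooled signals of 94.1 to 112. The first was mrps-17, a homolog of bacterial S17, with 112 in the pooled replicates, 72.9 in replicate 1 and 40.3 in replicate 2. Its rank was 692 in replicate 1 and 4068 in replicate 2, and the summit lay closer to the thioredoxin-domain gene txdc-9 (152 bp) than to mrps-17 (228 bp). At mrps-10, a homolog of bacterial S10, the values were 110 in the pooled replicates, 66.3 in replicate 1 and 43.9 in replicate 2. That summit, 356 bp upstream, lay 204 bp from the nuclear pore gene npp-25. For mrpl-15, a homolog of bacterial L15, the signals were 105 in the pooled replicates, 67.7 in replicate 1 and 38.4 in replicate 2, at 650 bp upstream with no other coding gene's start in reach. By rank, these 3 stood within the 878 strongest peaks of replicate 1, and between 2991 and 4823 in replicate 2.

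The remaining pair below the threshold differed in place. At mrps-12, a homolog of the bacterial decoding-centre protein S12, the signals were 102 in the pooled replicates, 53.7 in replicate 1 and 54.9 in replicate 2, with the summit 743 bp upstream in the 3′ UTR of num-1, the C. elegans Numb gene. At mrpl-49 they were 94.1 in the pooled replicates, 42.9 in replicate 1 and 54.9 in replicate 2. Its summit lay 7 bp upstream of mrpl-49, whose start is divergent from that of rpl-28, a cytosolic ribosomal protein gene 519 bp away. The rank of mrps-12 was 1648 in replicate 1 and 1325 in replicate 2, and that of mrpl-49 was 3396 in replicate 1 and 1327 in replicate 2.

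The next 3 by pooled signal complete the 12 highest. The stalk protein gene mrpl-12, whose bacterial homolog recruits translation factors, had 94.0 in the pooled replicates, 42.5 in replicate 1 and 50 in replicate 2. Its summit was at the same base, 513 bp upstream, in all 3 lists, and nearer to Y39A1A.22 (220 bp). The small-subunit gene mrps-15 had 90.6 in the pooled replicates, 50.1 in replicate 1 and 43.8 in replicate 2, with the summit 13 bp upstream. It starts 324 bp from asg-1, which encodes a subunit of ATP synthase, and the pair share the summit. At mrpl-19 the signals were 74.3 in the pooled replicates, 62.6 in replicate 1 and 40.7 in replicate 2, but the replicate summits were 297 bp apart, so they need not mark the same site.

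**Figure D2:**
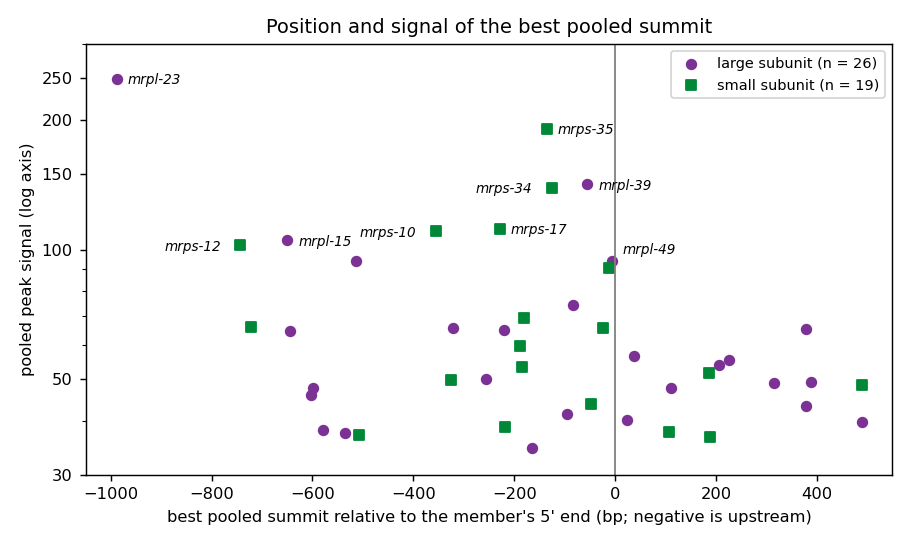
Pooled signal (log axis) of the best summit of each of the 45 members against its distance from the member's 5′ end in bp, negative upstream, for 26 large-subunit (circles) and 19 small-subunit genes (squares). The 9 highest members are named; they all lie upstream, at 7 to 988 bp, and the 14 summits at or downstream of the 5′ end all have signals below 70.

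Most member summits lay upstream of the gene, 31 of 45 (68.9%), against 72.8% of the best summits of all coding genes. The median position was 135 bp upstream (−135), against −225 for all coding genes, and 17 (37.8%) lay within 300 bp upstream, against 30.3%. By annotation, 25 of the 45 summits were intergenic, 9 in a coding exon, 8 in an intron, 1 in a 5′ UTR, 1 in a 3′ UTR and 1 in a non-coding exon. The 9 in coding exons were weak: the strongest, at mrpl-47, had 65.4 in the pooled replicates, 48.6 in replicate 1 and 27.6 in replicate 2. In 33 of 45 cases (73.3%) the member's own 5′ end was the closest of all protein-coding genes, and 26 of the 45 best summits were also the best summit of another coding gene. The annotation classes, closest 5′ ends and shared summits were not counted over all coding genes, so none can be called particular to the members.

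Large- and small-subunit genes had similar shares with a pooled summit. A relaxed pooled summit was at 26 of 41 large-subunit genes (63.4%) and 19 of 28 small-subunit genes (67.9%), and an optimal one at 2 of each set (4.88% and 7.14%). A summit of rank 5000 or stronger lay at 6 large-subunit (14.6%) and 7 small-subunit genes (25%). The median pooled signal was 52.0 at large-subunit genes and 59.6 at small-subunit genes, and the median position was −89 bp at large-subunit and −181 bp at small-subunit genes. In replicate 1, 16 large-subunit genes (39%) and 17 small-subunit genes (60.7%) had a summit, whereas in replicate 2 the shares were 61.0% of large-subunit and 60.7% of small-subunit genes. Both replicates held a summit at 12 large-subunit (29.3%) and 14 small-subunit genes (50%). None of these differences was tested. The gap between the subunits in replicate 1 was therefore not present in replicate 2.

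The replicates both held a summit at 26 members (37.7%), against 21.4% of all coding genes. Replicate 1 had a summit at 33 members (47.8%, against 33.9% of all coding genes) and replicate 2 at 42 (60.9%, against 34.5%). All 26 also had a pooled summit. Another 6 members were in the pooled list and replicate 1 only, 10 in the pooled list and replicate 2 only, and mrpl-2, mrpl-11 and mrpl-20 in the pooled list only. Outside the pooled list, mrpl-36 had a summit in replicate 1 alone (26.9), and mrpl-21, mrpl-42, mrpl-44, mrpl-46, mrpl-48 and mrps-16 in replicate 2 alone, led by mrpl-44 at 48.7 (rank 2024). More members thus had a summit in replicate 2 than in replicate 1. The members found in only some of the lists were not set beside counts over all coding genes.

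Where both replicates had a summit, its place often differed. The replicate summits were within 50 bp of each other at 11 of the 26 members (42.3%, against 35% over all coding genes with both), within 100 bp at 13 (50%, against 50.2%) and within 200 bp at 16 (61.5%, against 67.3%). The other 10 had summits that may belong to separate sites. Over these 26 members the signals of the 2 replicates had Spearman's rho = 0.683, against 0.530 over all coding genes with both, and 0.724 over the 16 members with summits within 200 bp. These values describe genes within the same libraries, which share a control, and mrpl-1 and mrps-24 share their summits.

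The gene mrps-28 shows how a window can take in another gene's peak. Its best summit had 69.3 in the pooled list (181 bp upstream) and 35 in replicate 1, but 633 in replicate 2, 993 bp upstream and at rank 11. That replicate 2 peak lies at the snoRNA gene Y43F8C.22, whose pooled and replicate 1 summits fell just outside the window. Within the pooled peak of mrps-28, the replicate 2 signal was 31.2 (rank 9868). The site near the gene was thus of ordinary level in both replicates.

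**Figure D3:**
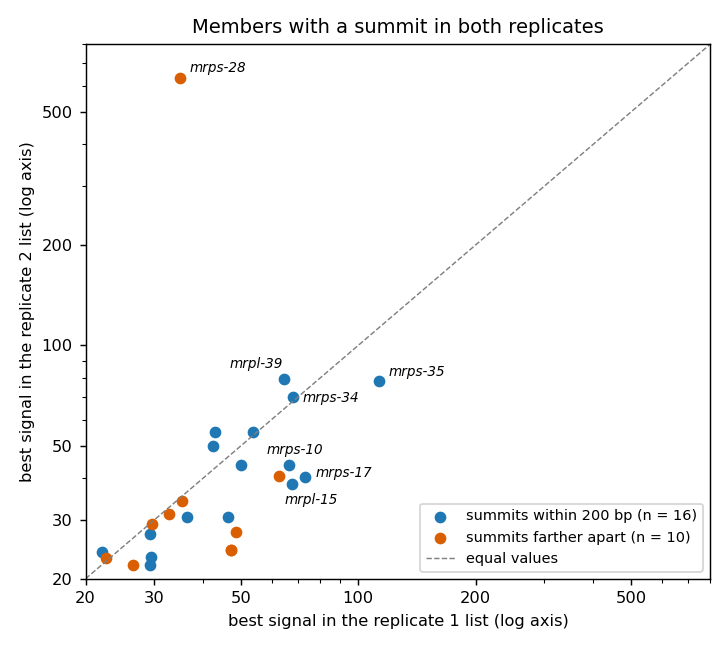
Best signal of the 26 members with a summit in both replicates, replicate 1 on the horizontal and replicate 2 on the vertical axis (both log), with equal values on the dashed line. Blue points have replicate summits within 200 bp (16 members) and orange points farther apart (10 members, of which mrpl-1 and mrps-24 coincide), and the 2 lists have no common scale; mrps-28 stands at 633 in replicate 2.

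The arrangement of the gene start went with the presence of a summit. Members were classed by annotation alone as divergent (another gene starts within 1000 bp upstream on the other strand), behind a same-strand coding gene (whose 3′ end lies within 1000 bp upstream), or neither. A gene that met both definitions was counted as divergent only. Of 28 divergent members, 25 (89.3%) had a relaxed pooled summit, against 45.0% of the 5232 divergent coding genes. Of 29 members behind a same-strand gene, 11 (37.9%) had one, against 38.3% of 5376 such genes. Of the 12 in neither class, 9 (75%) had one, against 37.3% of 9365 such genes.

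**Figure D4:**
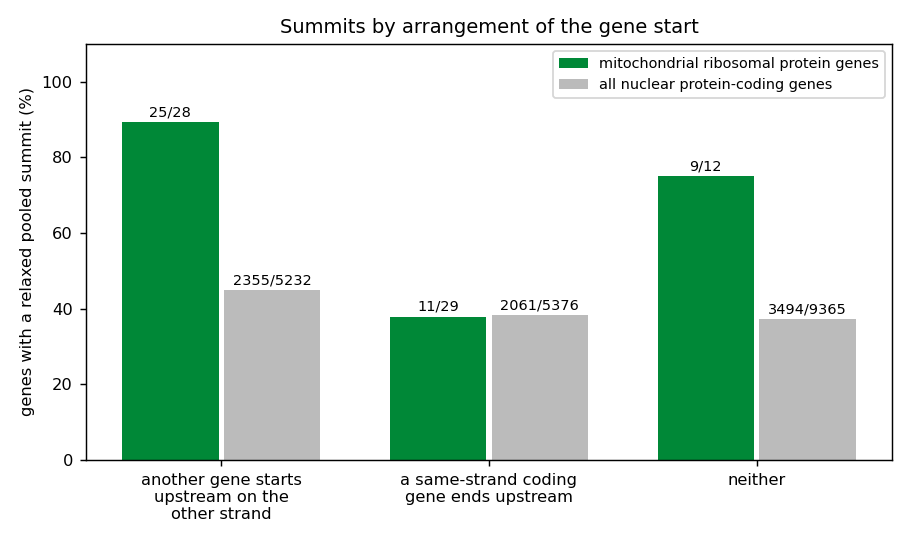
Share of genes with a relaxed pooled summit in the window (%), by arrangement of the gene start, for the 69 mitoribosomal genes (green) and all nuclear protein-coding genes (grey), with counts above the bars. The member bar is the higher one for divergent starts (25 of 28) and for neither class (9 of 12), and level with the grey bar behind a same-strand gene (11 of 29).

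The same order was seen in each replicate and in the stronger summits. Divergent members had a summit in 19 of 28 cases in replicate 1 (67.9%, against 40.2% of divergent coding genes) and in 22 in replicate 2 (78.6%, against 40.4%). Members behind a same-strand gene had one in 8 of 29 cases in replicate 1 (27.6%, against 32.9%) and in 13 in replicate 2 (44.8%, against 33.5%). A rank of 5000 or stronger was reached by 9 divergent members (32.1%, against 17.7%) and by 2 behind a same-strand gene (6.90%, against 8.69%). Optimal summits were at 3 divergent members (10.7%, against 5.79%), at 1 of neither class (8.33%, against 1.61%) and at 0 classed behind a same-strand gene (against 1.75%). The 1 of neither class is mrps-35, whose overlapping partner is not counted as divergent. Of the 3 divergent ones, mrpl-23 also starts 96 bp behind fars-1. It was classed as divergent through T08B2.14, which starts 810 bp away, so the order of the optimal shares depends on how this gene is classed. Where a summit was found, its median signal was 64.5 at divergent members, against 58.7 at divergent coding genes, and 49.3 at members behind a same-strand gene, against 50.8. Mitoribosomal genes were more often divergent (40.6%, against 26.2% of coding genes) and more often behind a same-strand gene (42.0%, against 26.9%), so their total mixes these classes in other proportions. A window over a divergent start also covers the neighbour's promoter, and which gene a summit serves cannot be told apart here.

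A pair of members starts head to head. The 5′ ends of mrpl-1, which encodes the homolog of bacterial L1, and mrps-24 lie 344 bp apart on chromosome IV and share a pooled summit of 65.9 (rank 5463), 23 bp upstream of mrps-24 and 321 bp upstream of mrpl-1. The signal was 47.3 in replicate 1 and 24.5 in replicate 2, with summits 261 bp apart. The same summit is the best of emc-6 and nhr-8 as well. It thus stands for 4 coding genes in the counts, and for 2 of the 45 members.

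Of the divergent members, 3 had no pooled summit: mrpl-10, a stalk protein gene 163 bp from clec-142, mrpl-34, 410 bp from lid-1, and mrpl-51, 53 bp from T12G3.6. They had no summit in either replicate. In all, 17 members (24.6%) had no summit in any of the 3 relaxed lists, against 49.6% of all coding genes. Besides these 3 they were mrpl-4, mrpl-13, mrpl-24, mrpl-28, mrpl-32 and mrpl-53 of the large subunit and mrps-2, mrps-5, mrps-14, mrps-18C, mrps-21, mrps-22, mrps-30 and mrps-33 of the small subunit. Of the 17, 11 lie within 150 bp behind a same-strand gene, the spacing seen inside operons. Such a gap is found at 19 of all 69 members and at 1590 of the 19973 coding genes. Its share among all coding genes without a summit was not counted.

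Members so close behind a neighbour were then followed to the first gene of their row, a comparison added after the values were seen. Gaps of 26 to 117 bp placed 19 members in such rows. A pooled summit lay in the window of 5 of the 19 (26.3%), against 42.9% of the 1590 coding genes with such a gap. At the first gene of the row it lay in 15 cases (78.9%), against 59.6%. Genes of the same row were counted separately, so the summit of natc-1 enters the 15 for both mrps-2 and mrpl-4. The other 50 members had a pooled summit in 40 cases (80.0%), against 39.3% of the other 18383 coding genes. The rows were read from annotated spacing, and no operon annotation was used.

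The summits at the first genes ranged widely. The row of mrps-21 begins with F29B9.11, which had an optimal summit 396 bp upstream with a signal of 284 in the pooled replicates (rank 135), 157 in replicate 1 and 132 in replicate 2. The row of mrps-14, a homolog of bacterial S14, begins with nrde-2, a nuclear RNA interference gene, with an optimal summit of 166 in the pooled replicates (rank 396), 95.1 in replicate 1 and 64.9 in replicate 2, though 936 bp upstream. Neither mrps-21 nor mrps-14 had a summit in its own window in any list. The F29B9.11 summit fell just outside the window of mrps-21, at −1080 bp in the pooled list, −1081 bp in replicate 1 and −1028 bp in replicate 2. The signal at F29B9.11 was higher than that at any member.

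Further first genes were below the optimal threshold. For mrps-33 it was F21D5.7, with 94.0 in the pooled replicates, 61.7 in replicate 1 and 30.5 in replicate 2, and for mrpl-24 it was zipt-11, with 93.4 in the pooled replicates, 50 in replicate 1 and 51.8 in replicate 2. The ESCRT gene vps-37 ahead of mrpl-48 had 89.7 in the pooled replicates, 65.5 in replicate 1 and 35.7 in replicate 2. At mrps-5 the gene ahead was sel-1, a gene of protein degradation at the endoplasmic reticulum, with 67.9 in the pooled replicates, 23.8 in replicate 1 and 43.1 in replicate 2. The row of mrps-26 begins with atp-2, the ATP synthase beta subunit gene, at 66.1 in the pooled replicates, and that of mrpl-53 with tag-124, 4 genes ahead, at 82.2. The members mrps-2 and mrpl-4 lie in a single row behind natc-1, at 45.2 in the pooled list. Weak pooled summits were also those of fars-1, a phenylalanyl-tRNA synthetase gene ahead of mrpl-23 (39.1), and cct-2, a chaperonin gene ahead of mrpl-50 (38.3), both below the signal at the member itself (249 and 54.0). The row of mrps-22 begins with dohh-1, at 36.2. No pooled summit was found at the first gene for mrpl-13, mrpl-21, mrpl-42 and mrps-30.

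Members lay on chromosomes I (15), II (11), III (22), IV (11) and V (10), and none on X, which holds 13.7% of all nuclear protein-coding genes. Chromosome III held 31.9% of the members, against 13.2% of coding genes. A pooled summit was found at 17 of the 22 members on III (77.3%, against 50.8% of coding genes there), 11 of 15 on I (73.3%, against 50.2%), 6 of 10 on V (60%, against 31.6%), 6 of 11 on IV (54.5%, against 37.3%) and 5 of 11 on II (45.5%, against 38.7%). The member share was the higher on each of the 5 chromosomes. A summit of rank 5000 or stronger lay at 4 members on I (26.7%, against 14.6% of coding genes there), 4 on III (18.2%, against 15%) and 5 on V (50%, against 9.43%). None lay at the 11 members on II (against 10%) or the 11 on IV (against 9.97%). At such shares few would be found among so few genes.

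Other nuclear genes of mitochondrial gene expression were read in the same way. Of 10 aminoacyl-tRNA synthetase genes of mitochondria, 7 (70%) had a pooled summit and 1 an optimal one, at ears-2, a glutamyl-tRNA synthetase gene, with 586 in the pooled replicates, 308 in replicate 1 and 278 in replicate 2, 35 bp upstream. Of 8 genes of translation factors and of mitochondrial transcription and DNA replication, 6 (75%) had a pooled summit. The optimal one was at gfm-1, mitochondrial elongation factor G, with 137 in the pooled replicates, 76.7 in replicate 1 and 57.3 in replicate 2. Of 14 chaperone and import genes, 12 (85.7%) had a pooled summit and 2 an optimal one: hsp-60, the mitochondrial chaperonin, with 286, 138 in replicate 1 and 144 in replicate 2, and tomm-20, an outer membrane receptor, with 141, 83.6 in replicate 1 and 58.0 in replicate 2. These lists are small, and each has 1 or 2 optimal members.

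Nuclear genes of the respiratory chain, taken by symbol, had larger shares. Many encode subunits of complexes that also hold products of the mitochondrial ribosome, and others in the list, such as sdha-1 and cox-10, do not. Of 51, 8 (15.7%) had an optimal summit and 41 (80.4%) a pooled one, and 18 (35.3%) had a rank of 5000 or stronger, against 4 (5.80%), 45 (65.2%) and 13 (18.8%) of the 69 mitoribosomal genes. The 6 highest were cox-6A (192), cox-5A (168) and cox-5B (166) of cytochrome oxidase, nuo-2 (165) of complex I, and cyc-1 (141) and ucr-2.1 (127) of complex III, in pooled signal. The members' median pooled signal of 54.0 compares with 65.1 at respiratory chain genes. No test of these differences was made.

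Cytosolic ribosomal protein genes, the nearest list by function, differed in each measure. Of 78, 19 (24.4%) had an optimal summit, 47 (60.3%) one of rank 5000 or stronger and 67 (85.9%) a pooled one, against 5.80%, 18.8% and 65.2% of mitoribosomal genes. The median pooled signal was 54.0 at mitoribosomal genes and 87.8 at cytosolic ones. Cytosolic summits lay almost always upstream (98.5%), at a median of −311 bp, whereas 68.9% of mitoribosomal summits did, at a median of −135 bp.

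**Figure D5:**
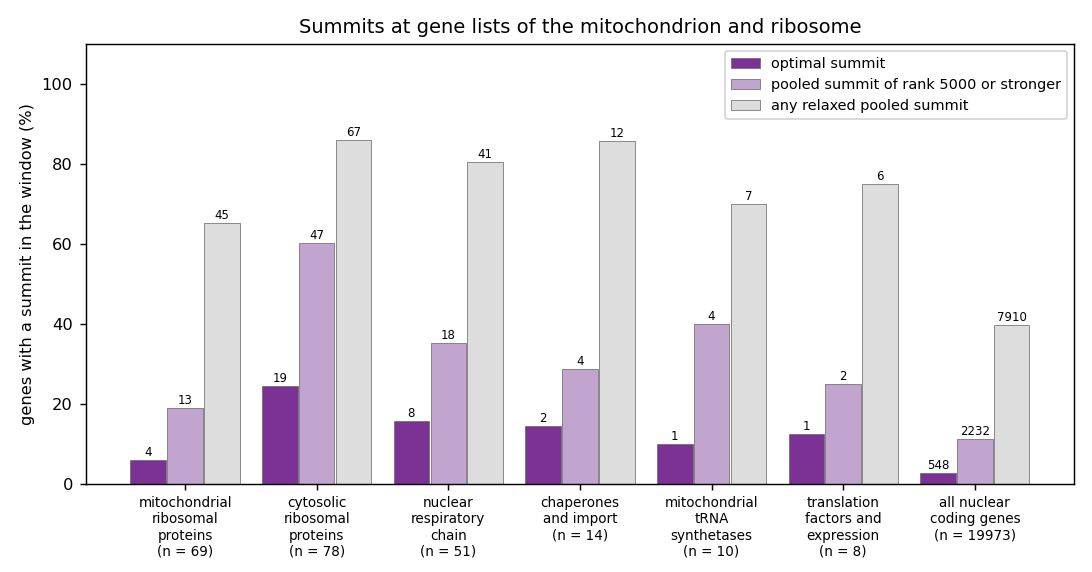
Share of genes with a summit in the window (%) for mitoribosomal genes, 5 related lists and all nuclear protein-coding genes, with an optimal summit (dark), a pooled summit of rank 5000 or stronger (mid) and any relaxed pooled summit (light), counts above the bars. Mitoribosomal genes have 4, 13 and 45 of 69, and stand below the other 5 lists and above all coding genes in each of the 3 shares.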

How the data were processed

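Per the labels, ChIP-seq was done on 2 biological replicates. The authors deposited narrowPeak lists with a peak signal (the peak caller's value), a −log10 q-value and a summit offset for each peak; no aligner or peak caller is given in the sources used here. The ce11 lists were used, since no annotation of ce10 was at hand. Gene positions are from Ensembl release 115 on WBcel235, and sequences from that genome. Summits were assigned, counted and searched for motifs with Python 3.11.15, pandas 2.3.3, numpy 2.4.6 and scipy 1.17.1, after the steps were checked on simulated data. With 1 group there was no test; counts and medians stand beside those of all 19973 nuclear coding genes. The members and lists were chosen with earlier results of these data known. Named were all optimal members, the 12 highest, the 5 just below the threshold, 10 members without a summit and up to 6 optimal genes of each other list; further genes were chosen by hand once values were known. The analyses of rows, of TTTCAG and of summits by arrangement under other settings were added after the values were seen. In the lists used, mitochondrial peaks number 24 of 30000 in the pooled list and did not enter.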

Additional observations from a re-analysis of the deposited data

How the results depend on the processing

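No paired analysis was possible because there is 1 group. The count of members with an optimal summit, 4, became 7 with a window reaching 2000 bp upstream (3.62% of all coding genes), 7 when a peak had only to overlap the window (3.02%), 2 with the stronger 50% of the optimal peaks (1.35%), 2 with the 500 strongest pooled peaks (1.53%) and 13 with the 5000 strongest (11.2%). To leave out a replicate, the 878 strongest peaks of the other replicate's relaxed list took the place of the optimal list. These are not optimal calls. The count was then 5 in both cases. Without replicate 1 the members were mrpl-23, mrpl-39, mrps-28, mrps-34 and mrps-35 (2.39% of all coding genes), where mrps-28 enters by the snoRNA peak. Without replicate 2 they were mrpl-15, mrps-10, mrps-17, mrps-34 and mrps-35 (2.77%). With 500 bp upstream only, members with a summit numbered 23 in the pooled list (19.9% of all coding genes) and 18 in replicate 2 (16.5%), and 4 of those behind a same-strand gene (18.1%). The shorter window itself takes in fewer summits, in members and in all coding genes. Other settings gave 36 to 50 pooled members (34.5% to 50.5% of all coding genes), 22 to 40 in replicate 1 (17.1% to 44.6%) and 37 to 49 in replicate 2 (30% to 45.3%). In 1 setting, only summits with the gene's own 5′ end as the closest coding one were counted. Replicate 1 then had 22 of the 69 members, against 29.1% of all coding genes, so its margin over all coding genes was small there. The other settings gave 17 to 25 divergent members (27.2% to 53.0% of divergent coding genes), with 19 to 22 without a replicate (40.2% to 40.4%), and 8 to 15 behind a same-strand gene (32.9% to 48.7%). The median signal ranged from 30.6 to 37.0 without a replicate, on the lower scale of the replicate lists. Peak lists without counts set no limit by depth.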
